A study of Arabidopsis thaliana with 4 samples.

Results

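The 10 genes described here encode basic helix-loop-helix (bHLH) transcription factors of the Arabidopsis response to iron deficiency. They are the 4 genes of subgroup Ib, namely bHLH38 (AT3G56970), bHLH39 (AT3G56980), BHLH100 (AT2G41240) and BHLH101 (AT5G04150), and 6 genes placed upstream of them. The upstream genes are bHLH34 (AT3G23210), bHLH104 (AT4G14410), ILR3 (AT5G54680) and bHLH115 (AT1G51070) of subgroup IVc, and bHLH121 (AT3G19860) and PYE (AT3G47640) of subgroup IVb. They were chosen by their place in the pathway, out of 33059 listed features, at a time when the differences between the genotypes were already known. Their values in that contrast are therefore given as a description. Where the fit over all features called some of them, the count stands beside that of all features and nothing is read from it. All 10 averaged over 1 TPM, the limit for testing used below.

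When iron is short, the subgroup IVc proteins pair with bHLH121 and switch on the Ib genes. The Ib proteins in turn pair with FIT, another bHLH factor, to activate the root genes for ferric reduction and iron uptake. PYE represses genes of iron movement inside the plant, and the E3 ligase BTS marks IVc proteins for degradation, so that much of the control above the Ib genes acts on proteins. The Ib genes are known as iron deficiency markers of leaves as well as roots.

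RNA sequencing covered plants aged 28 days, labelled as rosette leaves, in 2 groups of 2 libraries. One group was wild type (WT). The other overexpressed ERF4 under the 35S promoter of cauliflower mosaic virus (OE), which is active in most plant tissues. ERF4 is an ethylene response factor that carries a repression motif. The labels state neither how many transgenic lines or plants entered a library, nor whether replicates were separate plants, nor how iron was supplied. P-values therefore measure only the spread between these libraries. Levels are in TPM, abundances corrected for length and scaled to one total per library, so levels of different genes can be compared, while the read depth of each library is unknown.

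ERF4 (AT3G15210) itself stood at 9.68 and 10.6 TPM in WT, beside 24.5 and 28.8 TPM in OE, in the direction of the labels (limma, Benjamini-Hochberg adjusted p = 0.381). The 5 leaf markers examined, among them the Rubisco small subunit gene RBCS1A, summed to 60698 and 23722 TPM in WT, beside 30725 and 45694 TPM in OE. Root markers were present too, in every library. The myrosinase gene PYK10, abundant in roots, ranged from 2785 to 4116 TPM, and the endodermal Casparian strip gene CASP1 from 29.3 to 47.7 TPM. The root hair genes EXPA7 and COBL9 ranged from 13.3 to 21.0 TPM and from 6.51 to 7.66 TPM. The aquaporin gene TIP2;3 had 3.18 and 0.40 TPM in WT, beside 3.31 and 35.1 TPM in OE. The 5 root markers together summed to 3193 and 4169 TPM in WT, beside 2857 and 3850 TPM in OE. The genotypes overlapped in this sum, which was made up mostly of PYK10. Taken singly, 4 of the 5 overlapped. TIP2;3 had both OE libraries above both WT libraries, as had 13.7% of all tested features, though OE replicate 1 was close to WT replicate 1. The libraries thus carried the label of rosette leaves and also held transcripts that define roots. The 4 seed markers examined summed to 42.7 and 49.5 TPM in WT, beside 0.51 and 3.74 TPM in OE. CRU3, a seed storage protein gene, had 10.0 and 25.2 TPM in WT, beside 0.04 and 0.21 TPM in OE (difference -3.92, SE 0.481, limma adjusted p = 0.0182). It was the only gene of the 5 marker lists to pass the threshold. All 3 tested seed markers lay lower in both OE libraries than in both WT libraries, as did 14.2% of all tested features. The untested SESA1 was listed at 0 in WT replicate 1 and in both OE libraries. The 5 vascular markers summed to 176 and 177 TPM in WT, beside 186 and 251 TPM in OE. For the 3 floral markers the sums were 0.74 and 3.53 TPM in WT, beside 0.55 and 3.66 TPM in OE. The part of root, seed and vascular transcripts in the results on the bHLH genes was not tested, and in such bulk samples fewer cells of a type and less RNA per cell cannot be told apart.

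The Ib genes were high together in OE, so the 250 bases before each of their annotated starts are shown, 5′ to 3′ along the gene. They were read by locus from the RefSeq genome TAIR10.1, since the deposited table holds no coordinates and its build is not given in the sources used here. Capitals mark every E-box, the 6-base motif CANNTG that bHLH proteins bind.

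bHLH38, chr3:21085246-21085495, minus strand: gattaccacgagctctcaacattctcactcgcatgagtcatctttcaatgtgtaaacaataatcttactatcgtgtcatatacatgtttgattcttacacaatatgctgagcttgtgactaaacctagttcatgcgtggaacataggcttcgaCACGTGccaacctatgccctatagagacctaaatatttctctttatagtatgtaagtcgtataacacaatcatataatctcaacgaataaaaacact
bHLH39, chr3:21087711-21087960, minus strand: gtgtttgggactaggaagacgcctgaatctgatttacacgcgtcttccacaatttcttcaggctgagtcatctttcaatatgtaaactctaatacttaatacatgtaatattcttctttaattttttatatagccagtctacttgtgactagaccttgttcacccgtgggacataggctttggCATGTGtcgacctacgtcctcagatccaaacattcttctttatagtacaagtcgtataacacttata
BHLH100, chr2:17199455-17199704, minus strand: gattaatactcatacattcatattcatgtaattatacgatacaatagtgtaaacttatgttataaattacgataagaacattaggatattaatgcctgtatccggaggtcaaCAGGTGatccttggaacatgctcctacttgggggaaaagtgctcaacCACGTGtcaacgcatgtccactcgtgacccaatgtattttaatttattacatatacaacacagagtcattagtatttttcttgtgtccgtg
BHLH101, chr5:1139634-1139883, minus strand: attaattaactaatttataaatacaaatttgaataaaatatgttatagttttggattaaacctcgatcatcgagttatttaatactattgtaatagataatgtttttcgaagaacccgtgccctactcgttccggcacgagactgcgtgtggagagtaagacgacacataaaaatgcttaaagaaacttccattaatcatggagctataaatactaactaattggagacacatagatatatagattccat

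An E-box lay in this window in 3 of the 4 Ib genes. In bHLH38 it began 97 bases before the gene start, in bHLH39 67 bases before it, and in BHLH100 there were 2, at 138 and 91 bases. The match in bHLH38 and the nearer one in BHLH100 had the palindromic form CACGTG, the G-box, and BHLH101 had no E-box in these 250 bases. Of the 6 upstream genes, 4 had an E-box and 0 had a G-box. Among 27443 promoters of protein-coding genes cut in the same way, 55.3% held an E-box and 6.49% a G-box, counted on both strands. The GCC box GCCGCC, the motif bound by ethylene response factors, lay in 0 of the 10 windows and in 1.87% of all promoters. These motifs were picked after the sequences had been seen. A match in a window is not a shown binding site, and the lack of one says nothing about sites elsewhere. The windows of bHLH104 and bHLH115 overlap a neighbouring gene.

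**Figure D1:**
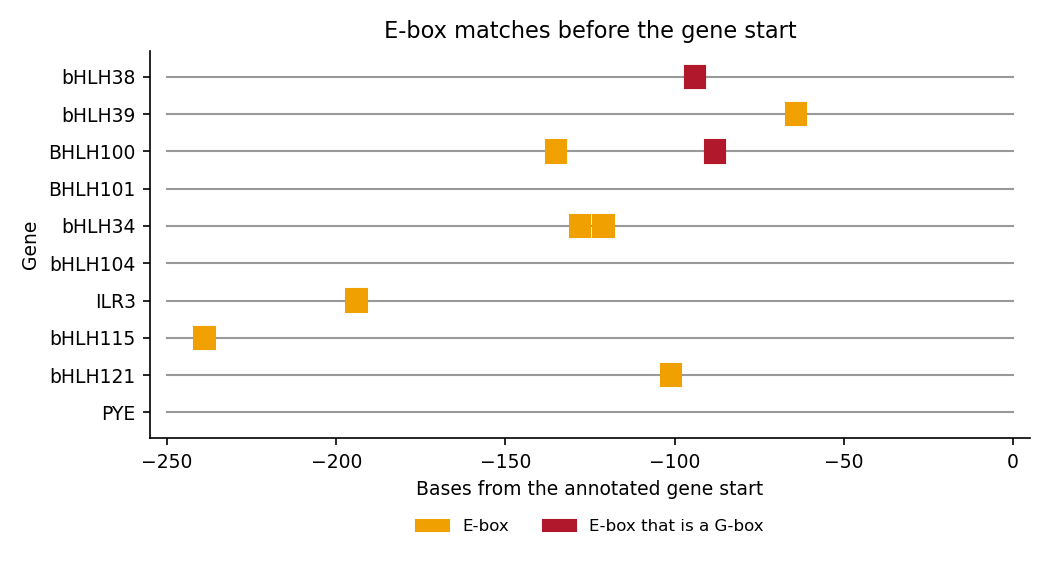
Positions of E-box matches (orange) and of those that are also G-boxes (red) in the 250 bases before the annotated start of each gene, with the distance from the start on the x axis in bases and 1 line per gene. The G-boxes of bHLH38 and BHLH100 begin 97 and 91 bases before the start, and BHLH101, bHLH104 and PYE have no match.

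The 4 Ib genes are relatives of unequal closeness. bHLH38 and bHLH39 are neighbours on chromosome 3, on the same strand and 1144 bases apart, with 0 annotated genes between them, and their coding sequences were 83.1% identical over the alignment. BHLH100, on chromosome 2, was 70.0% identical to bHLH38 and 69.1% to bHLH39. BHLH101, on chromosome 5, was the most distant, with 52.7% to 54.4% identity to the other Ib genes. Its identity to the 6 upstream genes in the same kind of alignment was 42.8% to 47.8%. The longest run of bases shared exactly by the transcripts of bHLH38 and bHLH39 was 34 bases, and no stretch of 50 bases was shared by any pair of the 10 transcripts. How reads that match more than one gene were divided is not given in the sources used here, so the separate levels of bHLH38 and bHLH39 carry some uncertainty.

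All 4 Ib transcripts were at higher levels in OE than in WT. The ratio of the OE mean to the WT mean lay between 3.93 for bHLH39 and 6.83 for BHLH101. In WT the Ib genes ranked above 60.9% to 84.4% of tested features, and in OE above 90.2% to 98.6%. The OE libraries differed strongly from each other for 3 of the 4 genes. BHLH101 was the exception, with OE libraries close to each other.

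bHLH38, also known as ORG2, had 45.4 and 47.9 TPM in WT, beside 293 and 122 TPM in OE, for means of 46.6 ± 1.79 and 207 ± 121 TPM (SD, n = 2). Both OE libraries were above both WT libraries, and OE replicate 1 was 2.41 times as high as OE replicate 2. bHLH39, its neighbour, had 44.3 and 56.6 TPM in WT, beside 310 and 86.3 TPM in OE, for means of 50.4 ± 8.68 and 198 ± 158 TPM (SD, n = 2). Here too the genotypes did not overlap, and OE replicate 1 was 3.59 times as high as OE replicate 2.

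BHLH100 had 51.6 and 47.5 TPM in WT, beside 438 and 99.4 TPM in OE, for means of 49.5 ± 2.90 and 269 ± 239 TPM (SD, n = 2). Its OE libraries were the furthest apart of the 10 genes, 4.40-fold, and both lay above WT. BHLH101 had 23.3 and 24.4 TPM in WT, beside 176 and 149 TPM in OE, for means of 23.8 ± 0.785 and 163 ± 19.3 TPM (SD, n = 2). Both of its OE libraries were high, 1.18-fold apart, and its WT level was the lowest of the Ib genes.

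**Figure D2:**
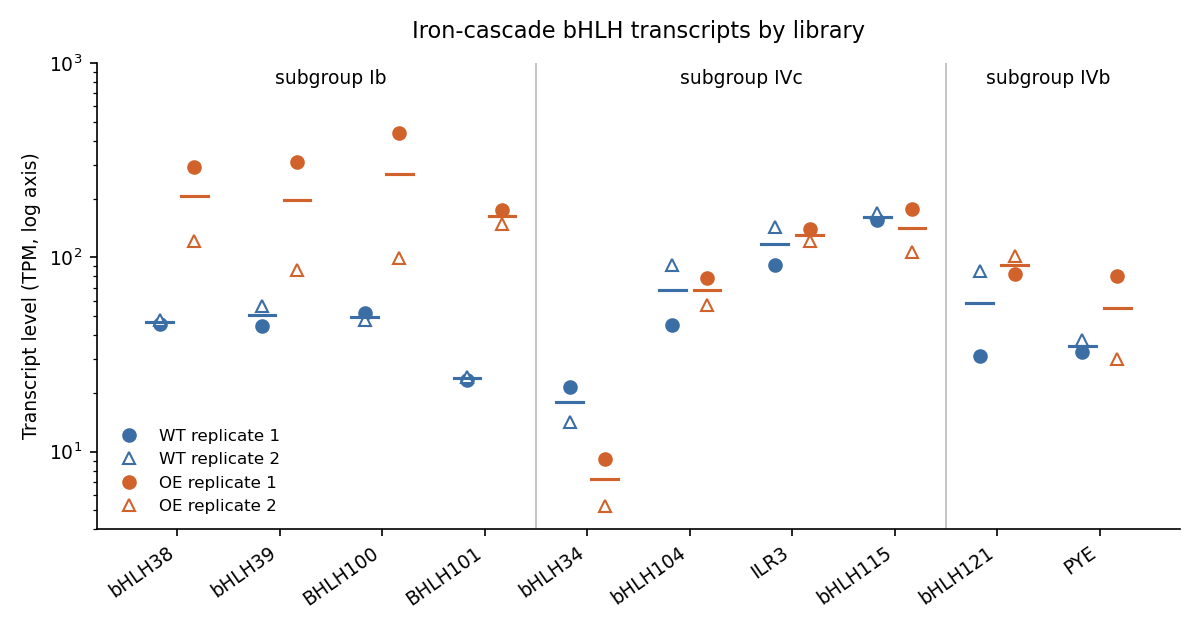
Transcript level in TPM (log axis) of the 10 bHLH genes in the WT libraries (blue) and OE libraries (orange), with replicate 1 as filled circles, replicate 2 as open triangles and the mean of each genotype as a bar. The OE points lie above the WT points for the 4 Ib genes and below them for bHLH34, and overlap them for the other 5 genes.

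On the log2(TPM + 1) scale the fitted OE minus WT difference was 1.99 (SE 0.472) for bHLH38, 1.69 (SE 0.556) for bHLH39, 2.06 (SE 0.602) for BHLH100 and 2.72 (SE 0.374) for BHLH101. Their median was 2.03, beside a median of -0.02 and a range from -0.77 to 0.81 between the 5th and 95th percentiles of all 20010 tested features. Leaving out OE replicate 1 gave an Ib median of 1.18 and leaving out OE replicate 2 gave 2.73, so its size rested on which OE library was used. BHLH101 moved least, with 2.60 and 2.84 in these fits, while bHLH39 had 0.77 and 2.61 and BHLH100 had 0.99 and 3.12.

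Of the 10 genes, 1 passed an adjusted p of 0.05 in the fit over all features, BHLH101, where 0.0900% of all tested features did so. No member, and no other feature, was called without WT replicate 1 or without WT replicate 2, while 1123 and 1819 features then had an unadjusted p under 0.05 in limma. The prior degrees of freedom, which set how much variance is borrowed from other features, were then 3.11 and 3.71, beside 8.73 in the main fit. A robust variance prior had 34.0 of them, and with it 2 members were called, BHLH101 and bHLH38, among 108 features. Both OE libraries lay above both WT libraries in 4 of the 10 genes, the Ib genes, and in 13.7% of tested features. Both lay below in 1 gene, bHLH34, and in 14.2% of tested features. Since the genes were picked with this contrast known, nothing is read from these counts.

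**Figure D3:**
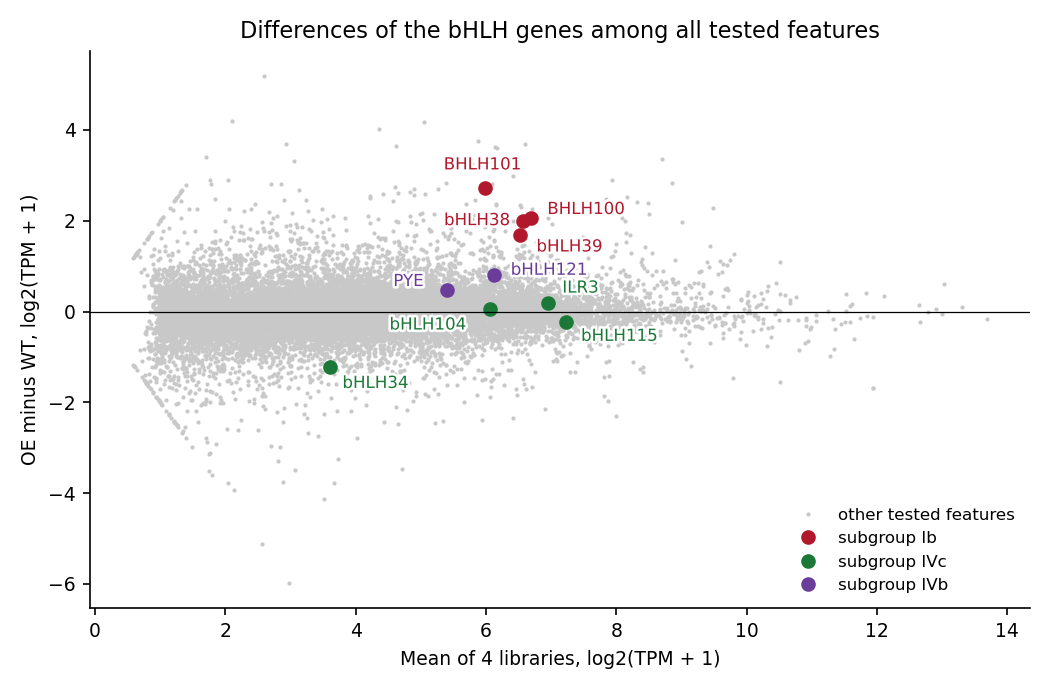
Difference of OE and WT in log2(TPM + 1) on the y axis against the mean of the 4 libraries on the same scale on the x axis, for 20010 tested features (grey) with the bHLH genes in colour. The Ib genes lie between 1.69 and 2.72, bHLH34 lies at -1.22, and the other 5 upstream genes lie between -0.23 and 0.81.

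The gap between the OE libraries can be set against that of other transcripts. For bHLH38, bHLH39 and BHLH100 the gap in log2(TPM + 1) was 1.26, 1.83 and 2.13, and 94.8%, 97.9% and 98.6% of tested features had a smaller one. For BHLH101 it was 0.24, with 38.0% of features smaller, near the median gap of 0.33. PYE shared the wide gap, at 1.39, with 95.8% of features smaller. In WT the same gaps were narrow, from 0.07 for BHLH101 to 0.35 for bHLH39, beside a median of 0.48.

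The make-up of the Ib pool followed from these values. BHLH101 supplied 14.1% and 13.8% of the summed Ib TPM in WT, beside 14.5% in OE replicate 1, but 32.7% in OE replicate 2. bHLH38 kept a share between 24.1% and 27.6% in the 4 libraries. The ratio of BHLH101 to bHLH38 was 0.513 and 0.509 in the WT libraries, 0.602 in OE replicate 1 and 1.23 in OE replicate 2. A ratio inside a library does not depend on how that library was scaled. OE replicate 2 thus stood apart from the other 3 libraries in the balance between BHLH101 and its relatives.

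The subgroup IVc genes, whose proteins activate the Ib genes, showed no shared shift. Of the 4, bHLH104, ILR3 and bHLH115 overlapped between the genotypes, and bHLH34 was lower in both OE libraries. bHLH115 was the most abundant upstream gene, with 156 and 169 TPM in WT, beside 177 and 107 TPM in OE, for means of 162 ± 9.47 and 142 ± 49.6 TPM (SD, n = 2). Its WT libraries lay between its OE libraries.

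ILR3, first known for resistance to a conjugate of auxin with leucine, had 91.7 and 143 TPM in WT, beside 140 and 122 TPM in OE, with means of 118 ± 36.5 and 131 ± 13.0 TPM (SD, n = 2). Both OE values lay inside the WT range. bHLH104 had 45.0 and 91.1 TPM in WT, beside 78.8 and 56.8 TPM in OE, with means of 68.0 ± 32.6 and 67.8 ± 15.6 TPM (SD, n = 2). Its OE values also lay inside the WT range, and the WT libraries were 2.03-fold apart.

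bHLH34 was the scarcest of the 10 in every library, with 21.6 and 14.3 TPM in WT, beside 9.14 and 5.25 TPM in OE. Its means were 18.0 ± 5.20 and 7.20 ± 2.75 TPM (SD, n = 2), a WT mean 2.496 times the OE mean and a difference of -1.22 (SE 0.399) on the log2(TPM + 1) scale. The genotypes did not overlap, in the direction opposite to the Ib genes. bHLH104 is its closest relative among the 10, with 64.1% identical coding sequence. Leaving out OE replicate 2 changed the difference of bHLH34 to -0.88, and leaving out OE replicate 1 to -1.57.

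Of the IVb genes, bHLH121, a partner of the IVc proteins also named URI, had 31.1 and 85.5 TPM in WT, beside 82.2 and 101 TPM in OE, with means of 58.3 ± 38.4 and 91.8 ± 13.6 TPM (SD, n = 2). WT replicate 1 was low and the other 3 libraries were similar, so the genotypes overlapped. Its difference of 0.81 (SE 0.489) on the log2(TPM + 1) scale became 0.10 when WT replicate 1 was left out and 1.52 when WT replicate 2 was.

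PYE, the repressor, had 32.8 and 37.6 TPM in WT, beside 80.03 and 29.8 TPM in OE, with means of 35.2 ± 3.45 and 54.9 ± 35.5 TPM (SD, n = 2). OE replicate 1 was high, and OE replicate 2 was below both WT libraries. The difference of 0.47 (SE 0.470) became 1.17 when OE replicate 2 was left out and -0.23 when OE replicate 1 was. PYE thus took its direction from OE replicate 1, the library in which bHLH38, bHLH39 and BHLH100 were also at their highest.

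Among the 6 upstream genes the median difference was 0.12 on the log2(TPM + 1) scale, with 4 positive and 2 negative values. Leaving out OE replicate 1 gave -0.20 and leaving out WT replicate 1 gave -0.21, while leaving out OE replicate 2 or WT replicate 2 gave 0.29 or 0.54. The sign of this median therefore depended on single libraries, as did those of bHLH104, ILR3, bHLH115 and PYE.

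The order of levels changed with genotype. In WT bHLH115 and ILR3 were the highest of the 10 in both libraries, and bHLH34 and BHLH101 the lowest. In OE replicate 1 the order was led by BHLH100, bHLH39 and bHLH38, and in OE replicate 2 by BHLH101, ILR3 and bHLH38. The WT levels of bHLH38, bHLH39 and BHLH100 lay between 44.3 and 56.6 TPM and did not differ beyond their spread. bHLH34 moved the other way, from above 64.6% and 44.8% of tested features in the WT libraries to above 35.8% and 25.3% in the OE libraries.

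Summed over the subgroup, the Ib genes reached 165 and 176 TPM in WT, beside 1216 and 456 TPM in OE. The IVc sum was 314 and 418 TPM in WT, beside 406 and 291 TPM in OE. The Ib to IVc ratio inside each library was 0.524 and 0.422 in WT and 2.999 and 1.57 in OE, with means of 0.473 ± 0.0720 and 2.28 ± 1.01 (SD, n = 2). Ib transcripts were fewer than IVc transcripts in both WT libraries and more numerous in both OE libraries.

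**Figure D4:**
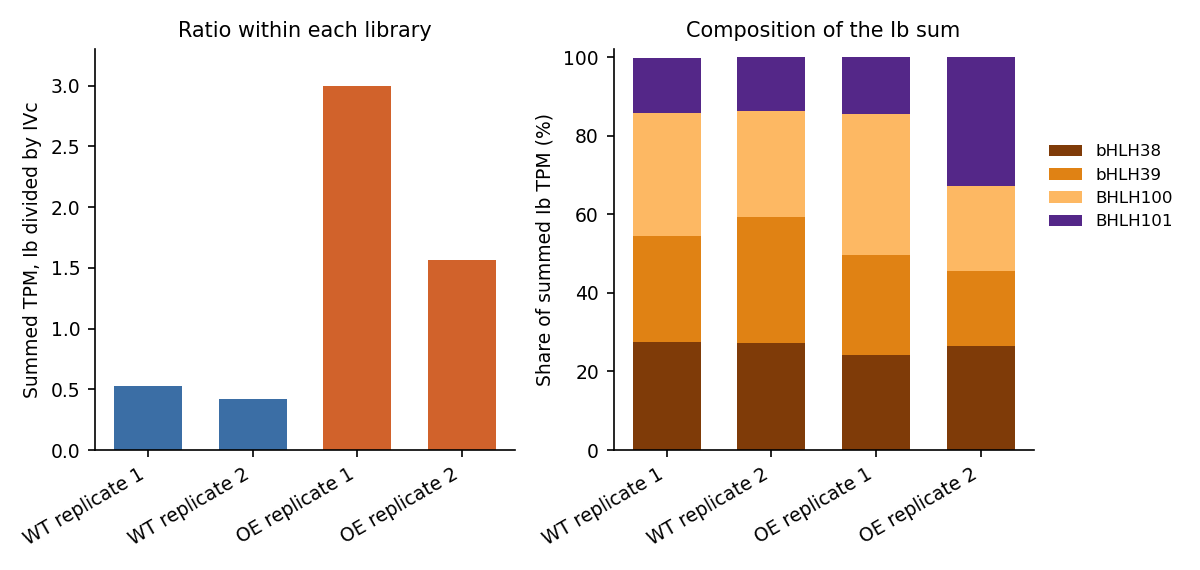
Left, summed TPM of the 4 Ib genes divided by that of the 4 IVc genes in each library (WT blue, OE orange), 0.524 and 0.422 in WT and 2.999 and 1.57 in OE. Right, share of each Ib gene in the Ib sum in percent, where BHLH101 has 13.8% to 14.5% in 3 libraries and 32.7% in OE replicate 2.

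Iron pathway genes outside the bHLH set were drawn from 6 lists, which were written with earlier results known. Of 52 loci, 44 had a matching name in the reference and 42 were tested. In the limma fit 0 of the 42 were called after Benjamini-Hochberg adjustment. An unadjusted p under 0.05 was found for 13 of the 42, a larger share than the 1061 of all 20010 tested features. Both OE libraries lay above both WT libraries in 9 genes and below in 13, beside the 13.7% and 14.2% of all tested features given above. Their median difference was -0.33 on the log2(TPM + 1) scale. Fits with other settings called some of these 42 genes. With a robust prior these were NAS1 and NAS3, lower in OE, and ZIF1, higher in OE, among 108 called features.

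Of 7 loci listed as further regulators of iron signalling, 2 had a matching name in the reference, BTS and bHLH11. The loci AT1G74770, AT1G18910, AT1G47400, AT1G47395 and AT2G30766 were not analysed here for lack of such a name. BTS, the E3 ligase that acts on IVc proteins, had 57.0 and 58.2 TPM in WT, beside 182 and 107 TPM in OE (difference 1.26, SE 0.417, limma adjusted p = 0.569). Both OE libraries were above WT, and OE replicate 1 was again the higher. bHLH11, a further bHLH factor of subgroup IVb, was scarce, with 2.28 and 1.47 TPM in WT, beside 0.97 and 1.41 TPM in OE.

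Of 5 loci listed as FIT and related bHLH factors, 2 had a matching name, and AT2G22750, AT2G22760 and AT4G37850 were not analysed here. FIT, the partner of the Ib proteins, listed in the reference as FRU with FIT1 as a synonym, had 4.14 and 2.84 TPM in WT, beside 2.99 and 10.3 TPM in OE. OE replicate 2 was the high library for FIT, in contrast to bHLH38, bHLH39 and BHLH100. NAI1, a bHLH factor known for the formation of endoplasmic reticulum bodies, ranged from 19.4 to 25.04 TPM in the 4 libraries.

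Root uptake genes, among them known targets of FIT with the Ib proteins, showed no shared shift between the genotypes. In this list 9 of 10 genes were tested and 0 were called, with a median difference of 0.08 on the log2(TPM + 1) scale. IRT1, the main iron importer of the root epidermis, had 130 and 31.2 TPM in WT, beside 43.2 and 59.6 TPM in OE (limma adjusted p = 1.0). WT replicate 1 was its highest library, although the Ib genes were low there. FRO2 and CYP82C4 of the same list were also highest there. FRO2 had 20.0 and 4.40 TPM in WT, beside 7.89 and 13.2 TPM in OE. CYP82C4 had 48.7 and 4.06 TPM in WT, beside 5.77 and 8.97 TPM in OE. For IRT1, FRO2 and CYP82C4 both OE libraries lay between the WT libraries. IRT2 was instead lowest in WT replicate 1, with 7.03 and 11.4 TPM in WT, beside 13.4 and 13.0 TPM in OE. The proton pump gene HA2 ranged from 243 to 339 TPM, and the coumarin exporter gene ABCG37 had 23.4 and 24.8 TPM in WT, beside 29.4 and 38.2 TPM in OE.

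Genes of iron transport and chelation went both ways. Of 19 tested, 0 were called. Both OE libraries lay above WT in 4 and below in 6, beside 13.7% and 14.2% of all tested features. The difference was negative in 13 of the 19, beside 10353 of all 20010 tested features. Its median was -0.33 on the log2(TPM + 1) scale. OPT3, a transporter of phloem loading, had 151 and 165 TPM in WT, beside 382 and 143 TPM in OE. FRO3, a ferric reductase of mitochondria, had 72.8 and 117 TPM in WT, beside 253 and 165 TPM in OE (limma adjusted p = 0.785). In both genes OE replicate 1 was the highest library, and the genotypes overlapped for OPT3 alone of the pair. PIC1, a permease of the chloroplast envelope, ranged from 95.1 to 146 TPM with overlapping genotypes.

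Iron storage genes had negative log2 differences throughout, although 0 were called. This held for all 7 tested genes, with a median of -0.73 on the log2(TPM + 1) scale, and for 10353 of all 20010 tested features. In 4 storage genes both OE libraries lay below WT, as in 14.2% of all tested features. The ferritin gene FER1 had 69.0 and 57.6 TPM in WT, beside 19.6 and 25.8 TPM in OE (difference -1.45, SE 0.370, limma adjusted p = 0.318). FER3 had 33.7 and 13.6 TPM in WT, beside 17.5 and 9.03 TPM in OE, with overlap. VTL5, a vacuolar iron transporter-like gene, had 20.7 and 15.6 TPM in WT, beside 4.05 and 33.1 TPM in OE, so its OE libraries lay on either side of WT. Its mean was 18.19 TPM in WT and 18.55 TPM in OE, so its negative sign held on the log scale alone. The ratio of FER1 to the Ib sum inside a library was 0.419 and 0.327 in WT and 0.0161 and 0.0565 in OE.

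Among 3 genes for chloroplast proteins linked to leaf iron deficiency, ORG1 had 162 and 172 TPM in WT, beside 575 and 402 TPM in OE (difference 1.52, SE 0.460, limma adjusted p = 0.479). CGLD27 had 149 and 104 TPM in WT, beside 357 and 224 TPM in OE (difference 1.18, SE 0.457, limma adjusted p = 0.778). Both were highest in OE replicate 1 and above WT in both OE libraries. NEET, an iron-sulfur protein gene, had 54.1 and 2.59 TPM in WT, beside 1.04 and 1.60 TPM in OE, so that WT replicate 1 alone was high.

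**Figure D5:**
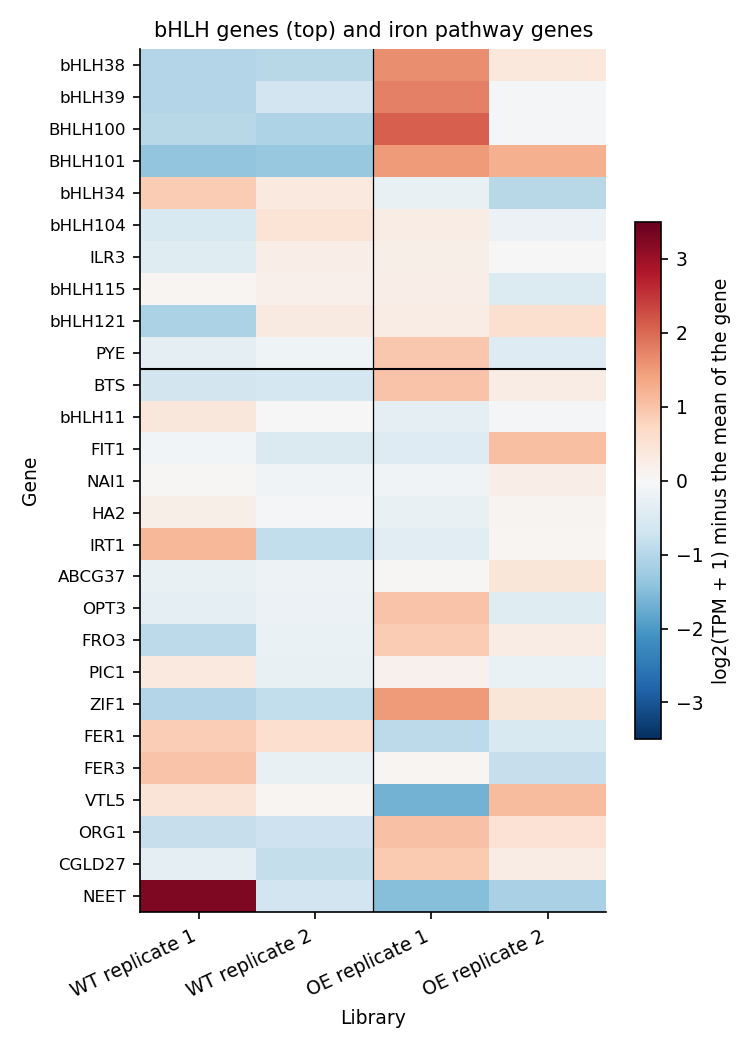
Level of each gene in each library as log2(TPM + 1) minus the mean of that gene over the 4 libraries, red for above and blue for below, with the 10 bHLH genes above the horizontal line and iron pathway genes under it. Ib genes, BTS, ZIF1, ORG1 and CGLD27 are red in OE replicate 1, and FER1 is blue in both OE libraries.

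A search over 7129 named genes with a mean of at least 5 TPM asked which profiles lay nearest to the mean Ib profile, by the root mean square difference of centred log2(TPM + 1) over the 4 libraries. The mean Ib profile was -1.10 and -1.01 in WT and 1.74 and 0.37 in OE. The nearest gene was ZIF1, a vacuolar transporter of the metal chelator nicotianamine and a known target of PYE, at a distance of 0.145. The median distance of all genes searched was 1.17. ZIF1 had 27.5 and 30.9 TPM in WT, beside 164 and 76.9 TPM in OE.

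The next were BZS1, a B-box factor of brassinosteroid and light responses, at 0.249, and RSH2, a plastid enzyme of guanosine tetraphosphate metabolism, at 0.32. WRKY40, a factor of defence and abscisic acid responses, followed at 0.337. ACS7, an ethylene precursor synthase, stood at 0.342 and the factor gene GATA12 at 0.403. These 6 genes were picked for likeness over 4 libraries in 2 groups, so their OE levels above WT follow from the choice. With a pseudocount of 0.1 all 6 were again the nearest, and with 5 it was 4 of them.

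The mean IVc profile was nearly flat, at 0.00 and 0.30 in WT and 0.11 and -0.41 in OE. Its nearest genes were TAFII21, a general transcription factor subunit, at 0.0107, MYB60, a guard cell factor, at 0.0161, and the organellar ribosomal protein gene RPS2 at 0.0257, beside a median of 0.315. With a pseudocount of 5, 1 of these 3 was still among the nearest.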

How the data were processed

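The deposited table lists TPM per gene, and the authors normalised each of the 4 libraries to the same total, so depth and counting error cannot be given. The tools were RSEM, HISAT and fastp, per the submitters' processing notes. Their versions, the build and the annotation are not stated there. Columns were tied to samples by the labels, and WT replicate 2 carries another number in its column name. The 2 columns of genotype means were not tested.

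The 20010 features averaging 1 TPM or more were fitted as log2(TPM + 1) on genotype alone, using limma (version 3.58.1, R version 4.3.3) with its variance trend, two-sided tests and Benjamini-Hochberg adjustment at 0.05. Fold changes on this scale understate low genes. There were 2 residual and 8.73 prior degrees of freedom. Sequences came from RefSeq TAIR10.1, and identity was that of global alignments with Biopython 1.88.

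The 10 genes, the lists and the tests were chosen with earlier results of these data known. Named by rule were the 10 genes, in each iron pathway list any called gene and the 3 with the highest mean, and the nearest profiles. NAS1 and NAS3 were named besides, because other fits called them. FRO2, CYP82C4 and IRT2 were named after their values were seen. The marker genes named were chosen after their values were seen. Of 52 list loci, 8 without a matching name in the reference were left out. Alternatives covered pseudocounts, filters, scalings, organelle removal, variance priors, the replicate block and leaving out each library.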

Additional observations from a re-analysis of the deposited data

How the results depend on the processing

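The number of called features, 18, was 0 in limma with no filter, with quantile normalization and with median-ratio scaling, where 1072, 1114 and 1131 features had an unadjusted p under 0.05. It was 63 with a mean of at least 5 TPM, 108 with a robust prior, and from 0 to 293 when 1 library was left out. Of the 10 bHLH genes, 1 was called, BHLH101, and 2 with a robust prior. Without 1 library it was 0 to 4. BHLH101 lost its call in the 5 fits that called 0 features, and its difference lay between 2.54 and 2.84 in every fit. Iron pathway genes outside the bHLH set numbered 0 among the calls, 1 with a mean of at least 5 TPM (NAS1), 3 with a robust prior (NAS1, NAS3 and ZIF1) and 0 to 3 without 1 library. Those with OE above WT numbered 9, and 10 to 16 without 1 library, and those with OE below numbered 13, and 16 to 23, since 3 libraries overlap less often. The Ib median of 2.03 ranged from 1.18 to 2.73 without 1 library, and all 4 Ib genes stayed positive in every fit. A lone library is assumed to vary like the other group. With the replicate number as a block, 338 features were called, with 4 pathway genes (NAS1, NAS3, NEET and ZIF1) and the 4 Ib genes. The limma adjusted p was 0.00578 for bHLH38, 0.0391 for bHLH39, 0.00384 for BHLH100 and 1.01e-05 for BHLH101. The prior degrees of freedom of that fit were not finite. Its p-values thus rest on the variance trend over all features and not on each gene's own spread. The prior was 3.11 to 3.71 in the 5 fits that called 0 features, 8.73 in the main fit and 34.0 with a robust prior. The labels do not say that numbers pair the libraries, and the deviations of same-numbered libraries correlated at 0.03 across features, with 2 pairs. Median-ratio scaling moved the median of all features by less than 0.1. Depth limits are unknown, since TPM keep no read number.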
